A study of Mus musculus with 9 samples.

Results

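The 42 genes described here encode the machinery that carries newly made proteins between the endoplasmic reticulum (ER) and the Golgi: the COPII and COPI coats and their GTPases, ER exit site proteins, cargo receptors, KDEL receptors, SNAREs and tethers. They were taken by name from a table of 29995 genes without immunoglobulin (Ig) genes. The rule that lists them uses no measured value, though it was written with earlier results of these data known. The study asked how B cells prepare for secretion, and RNA was sequenced from 3 groups of cells of the spleen, with 3 libraries each (9 libraries in all). All mice were 12-week-old B6.Blimp1GFP/+ animals, in which green fluorescent protein (GFP) reports Prdm1, and spleens were taken 4 days after intraperitoneal injection of 50 µg NP-LPS, a hapten joined to lipopolysaccharide. In all 3 groups, T cells, macrophages and erythroid cells were gated out by CD4, CD8a, F4/80 and Ter-119. Naive B cells were B220 positive with high IgD and no NP staining. The antigen-specific activated cells, called NP-binding B cells here, carried B220 and stained with NP but not for IgD, GFP or CD138. Antigen-specific plasma cells (PCs) stained with NP, GFP and CD138 and not for IgD. The naive cells therefore came from immunized mice too, and every group carried the Blimp1GFP allele. Per the study, the cells were sorted from 3 separate mice, and the labels do not say which libraries of different groups came from the same mouse.

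COPII is the coat that forms vesicles at ER exit sites: the GTPase Sar1 recruits Sec23 and Sec24, and Sec13 and Sec31 form the outer cage. Sec24 binds the sorting signals of cargo, directly or through cargo receptors such as Lman1, Surf4 and the p24 (Tmed) proteins. COPI, recruited by Arf GTPases, forms vesicles that move back from the Golgi, and KDEL receptors use this route to return ER chaperones that have escaped. Plasma cells are known for an enlarged ER and for the export of large amounts of antibody.

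All libraries held 28958700 to 39341500 estimated reads. Once Ig genes were left out, 28490300 to 31719400 were left in the naive group, 34918400 to 38602300 in the NP-binding group and 20189900 to 22137400 in PCs. The B cell markers (6 of 6 measured) summed to a TPM of 8446 to 8760 in naive, 6301 to 6778 in NP-binding B cells and 1497 to 1568 in PCs. The plasma cell markers in that table (5) summed to 142 to 167, 175 to 194 and 4811 to 5939. Liver markers (6) summed to 1.41 to 5.41 in the 6 B cell libraries, 26.5 and 22.8 in PC libraries 1 and 2, and 4613 in PC library 3, where Alb was at 660.5. In PC libraries 1 and 2 nearly all of that sum was Apoa2, and Alb was at 0.166 and 0.0810. Neutrophil markers (4) summed to 48.9 in NP-binding B cell library 2 and to 0.118 and 0.315 in the other two of its group, and in PCs to 4.76, 5.41 and 32.0. Macrophage and monocyte markers (6) summed to 9.41 to 9.74 in naive, 53.4 to 70.4 in NP-binding B cells and 32.8 to 94.6 in PCs, with Cd68 as most of the sum in NP-binding B cells. T cell markers (7) summed to 56.1 to 64.1, 24.3 to 58.4 and 4.53 to 7.20, with Trac at 0 in all libraries and Lck as most of the sum in naive and NP-binding B cells, and NK cell and erythroid markers summed to at most 15.2 in any library. Since PC library 3 stands apart, the counts of calls in PCs are given with and without it.

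Values are TPM, transcript abundances corrected for length and expressed per fixed total, from the table without Ig genes. A gene was called higher or lower where it differed by a fold change over 2 with a Benjamini-Hochberg adjusted p under 0.05 in limma. All 42 genes passed the filter on low values (3 libraries or more with a TPM of 1 or above), Kdelr3 only through its PC libraries, so its place in the counts of calls below is a description. In these bulk samples, fewer cells of a type and less RNA per cell cannot be told apart.

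Relative to transcripts other than Ig, PCs held a higher summed TPM than naive B cells in every functional class of transport genes. With Ig transcripts counted this did not hold for every class, as given below. Of the 42, 33 were called higher, 1 was called lower (Sec24b) and 8 were not called, while 11.4% of all 12892 genes tested were called higher and 26.3% lower. The median log2 change was 1.59 over the members and -0.47 over all genes tested. In 39 genes all PC libraries lay above all naive libraries, which held for 21% of all genes. Of the 8 that were not called, 6 had an adjusted p under 0.05 but a fold change under 2, and Sec24c and Tmed4 did not pass the p-value either. Without PC library 3, 32 of 41 genes were called higher and 0 lower, and Kdelr3 could not be tested since it then passed the filter in too few libraries.

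The comparison of PCs with NP-binding B cells, which shares the PC libraries with the first, gave 32 genes called higher and 0 lower, against 9.93% and 22.3% of all genes. The 1 gene with a change below 0 was Sec24b (log2 change -0.67, adjusted p = 0.0132, fold change under 2), which was called lower there in the full table. The median log2 change was 1.48 against -0.30 over all genes, and the PC libraries lay above all NP-binding B cell libraries in 40 of the 42 genes (17.3% of all genes). Without PC library 3, 35 of 41 were called higher, with Tfg, Copa, Copb1 and Tmed2 added and no tested member lost. Across both comparisons, 29 genes were called higher in PCs against each B cell group, 4 against naive B cells only and 3 against NP-binding B cells only.

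**Figure D1:**
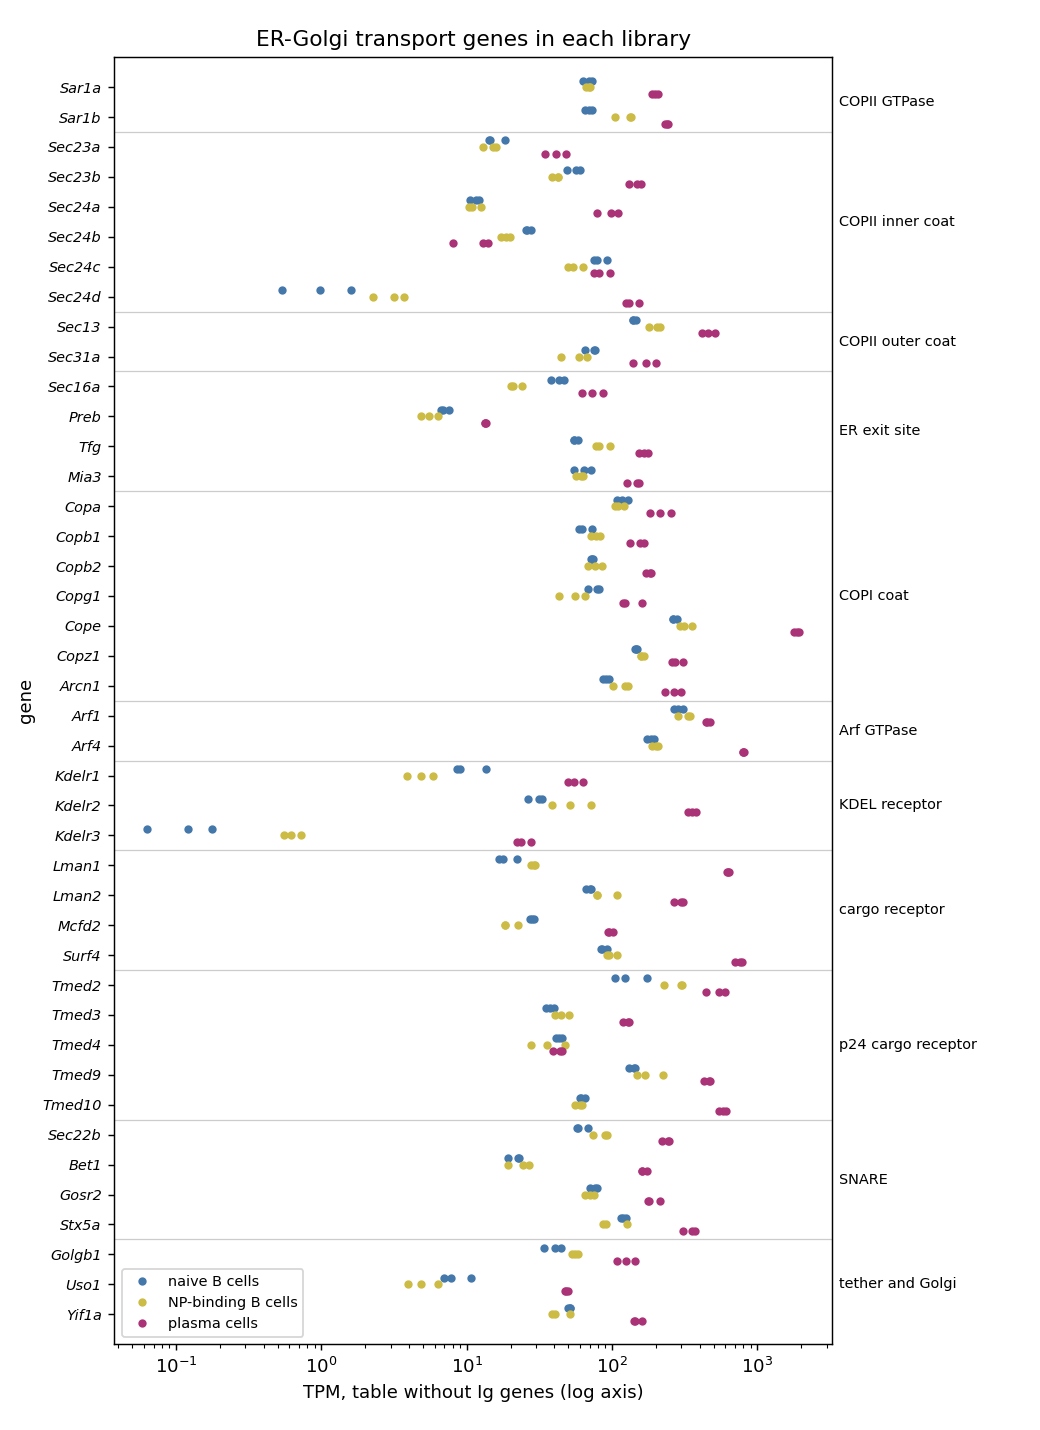
TPM of each transport gene (rows, grouped by role) in the 3 naive B cell, 3 NP-binding B cell and 3 plasma cell libraries, on a log axis, with 1 point per library. Plasma cell points lie to the right of both B cell groups in 39 of 42 genes, and the exceptions are Sec24b, Sec24c and Tmed4.

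These counts depend on what the values are relative to. Ig transcripts were left out of the main table before scaling, and in the full table the same genes were called higher in 11 cases against naive B cells and 12 against NP-binding B cells, with 3 and 1 called lower. Over all genes tested in that table, 4.47% were called higher and 64.5% lower against naive B cells, and 3.41% and 59.7% against NP-binding B cells. Without PC library 3, an alternative chosen after seeing the data, 10 and 11 of 41 members were called higher and 3 and 1 lower in the full table. With all 9 libraries, the members' median log2 changes in the full table were 0.38 and 0.28, against -1.40 and -1.27 over all genes tested there. The median of all genes thus moved by -0.93 and -0.97. The 11 then called higher against naive B cells were Sec24a, Sec24d, Cope, Kdelr1, Kdelr2, Kdelr3, Lman1, Surf4, Tmed10, Bet1 and Uso1, and Mcfd2 joined them against NP-binding B cells. The 3 called lower against naive B cells were Sec24b, Sec24c and Tmed4, and the 1 against NP-binding B cells was Sec24b. With Ig genes counted, 9 genes changed sign against naive B cells (Sec24c, Sec31a, Sec16a, Preb, Mia3, Copa, Copg1, Copz1 and Arf1) and 11 changed sign against NP-binding B cells (Sar1b, Sec24c, Tfg, Copa, Copb1, Copz1, Arcn1, Arf1, Tmed2, Tmed4 and Golgb1). Of these, Sec31a (0.096) and Mia3 (0.007) against naive B cells and Arcn1 (0.035) against NP-binding B cells were above 0 without PC library 3. The summed TPM of the 42 genes without Ig genes was 3056 ± 154 in naive B cells, 3481 ± 308 in NP-binding B cells and 11500 ± 603 in PCs (mean ± SD, n = 3). With Ig genes counted the sums were 2861 ± 146, 3113 ± 254 and 3355 ± 87.1. The classes differed here. Among all transcripts, the PC to naive ratio of summed TPM was 0.729 for the 4 ER exit site genes, 0.829 for the 2 Arf GTPases, 0.905 for the 10 COPII GTPases and coat subunits, 1.02 for the 3 tether and Golgi genes, 1.05 for the 4 SNAREs, 1.15 for the 7 COPI subunits, 1.30 for the 5 p24 proteins, 2.69 for the 4 other cargo receptors and 3.34 for the 3 KDEL receptors. In the table without Ig genes these ratios were 2.34, 2.66, 2.91, 3.26, 3.38, 3.70, 4.16, 8.63 and 10.7, in the same order.

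**Figure D2:**
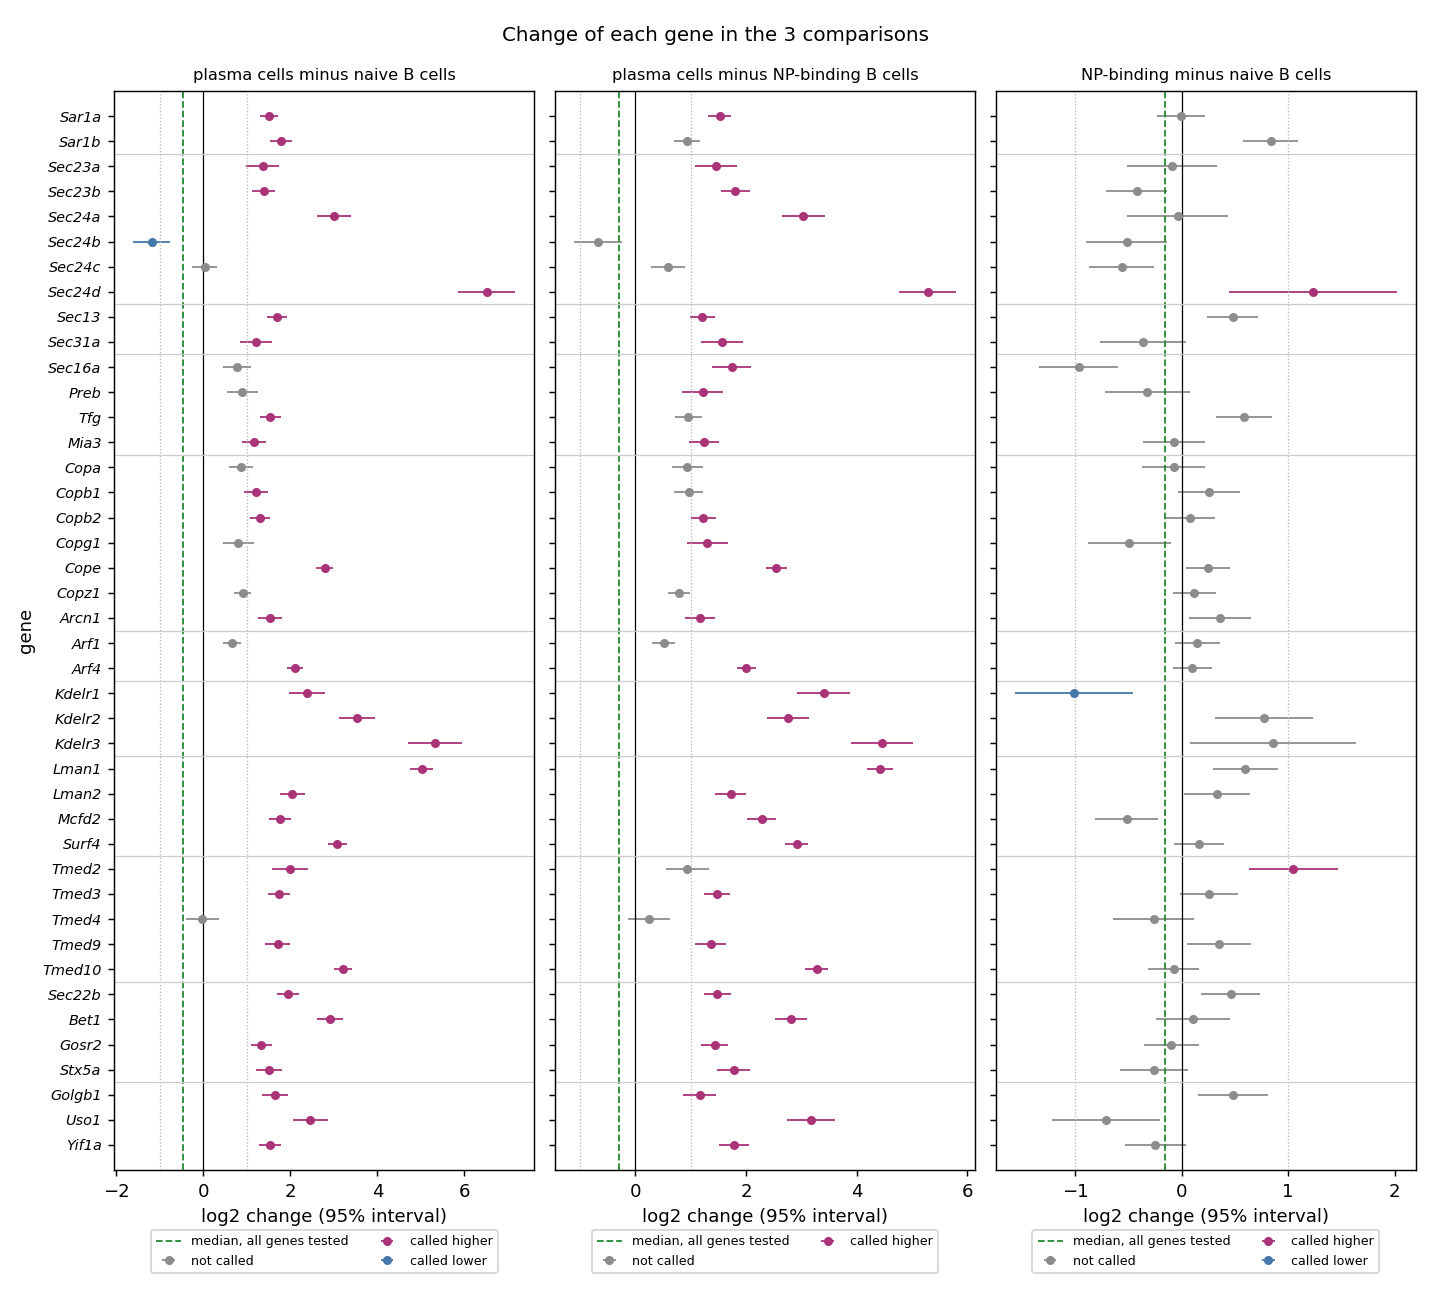
Log2 change of each transport gene with its 95% interval (limma, 3 libraries per group) in the 3 comparisons. Coloured points were called, dotted lines mark a fold change of 2 and the dashed line marks the median of all genes tested. The points lie right of 1 for most genes in both plasma cell panels, with Sec24d, Kdelr3 and Lman1 farthest, while in the third panel 3 genes were called and the points lie on both sides of 0.

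Among the COPII coat genes, the Sec24 paralogues moved apart most. Sec24d was low in naive B cells, at 1.60, 0.536 and 0.982 TPM, and stood at 3.15, 3.71 and 2.27 in NP-binding B cells and 124, 153 and 130.1 in PCs. The groups did not overlap at any step, and the naive level rested on 159, 55.9 and 87.8 estimated reads. Its log2 change was 6.51 ± 0.30 (SE) in PCs against naive B cells (adjusted p = 1.73e-08) and 5.28 ± 0.23 against NP-binding B cells (adjusted p = 1.64e-08). The offset of 0.5 that is added before the log makes such changes smaller for genes at low levels.

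Sec24a was level between the B cell groups, at 11.6, 10.5 and 12.2 TPM in naive and 10.3, 12.5 and 10.8 in NP-binding B cells, and reached 98.6, 110.4 and 78.6 in PCs. Its log2 change in PCs was 3.00 ± 0.18 against naive (adjusted p = 1.28e-07) and 3.03 ± 0.18 against NP-binding B cells. Sec24c, the most abundant of the 4 in both B cell groups, was at 79.1, 75.6 and 91.5 in naive, 63.0, 53.9 and 49.9 in NP-binding B cells and 80.9, 96.4 and 74.9 in PCs. The PC libraries overlapped the naive ones, and the change was 0.03 (95% interval -0.27 to 0.32). Sec24b was at 25.6, 27.8 and 26.1 in naive, 19.7, 17.1 and 18.6 in NP-binding B cells and 14.1, 12.9 and 8.08 in PCs. No libraries of different groups overlapped for Sec24b. It was the one member called lower in PCs than in the naive group, at a log2 change of -1.19 ± 0.19 (adjusted p = 0.000257), and this call was lost without PC library 3 (-0.96), with median-of-ratios scaling (-0.70) and with quantile normalization (-0.69).

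The makeup of the Sec24 pool was set beside these levels. Sec24d made up 0.859% ± 0.455 (SD, n = 3) of summed Sec24 TPM in naive B cells, 3.43% ± 0.75 in NP-binding B cells and 41.6% ± 2.82 in PCs. Sec24c was at 67.7% ± 2.04, 62.8% ± 2.32 and 25.7% ± 0.192, and Sec24b at 22%, 21.0% and 3.55%. Sec24a was at 9.45%, 12.8% and 29.2%. Shares within a library do not change with the scaling of the table. For each of the 4 genes the PC shares lay outside the range of both B cell groups, with an exact permutation p of 0.1, the smallest that 3 libraries against 3 can give, so no share could reach 0.05. Of 45 share comparisons made over 6 gene families, 35 gave this p, and the smallest adjusted value was 0.129. Sec24a and Sec24b are one pair of close paralogues and Sec24c and Sec24d the other. Within the first pair Sec24a held 30.2% ± 2.35 in naive B cells, 37.8% ± 3.97 in NP-binding B cells and 89.3% ± 1.61 in PCs, and within the second Sec24d held 1.25% ± 0.661, 5.18% ± 1.11 and 61.8% ± 1.53. These pair values were computed after the shares had been seen.

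**Figure D3:**
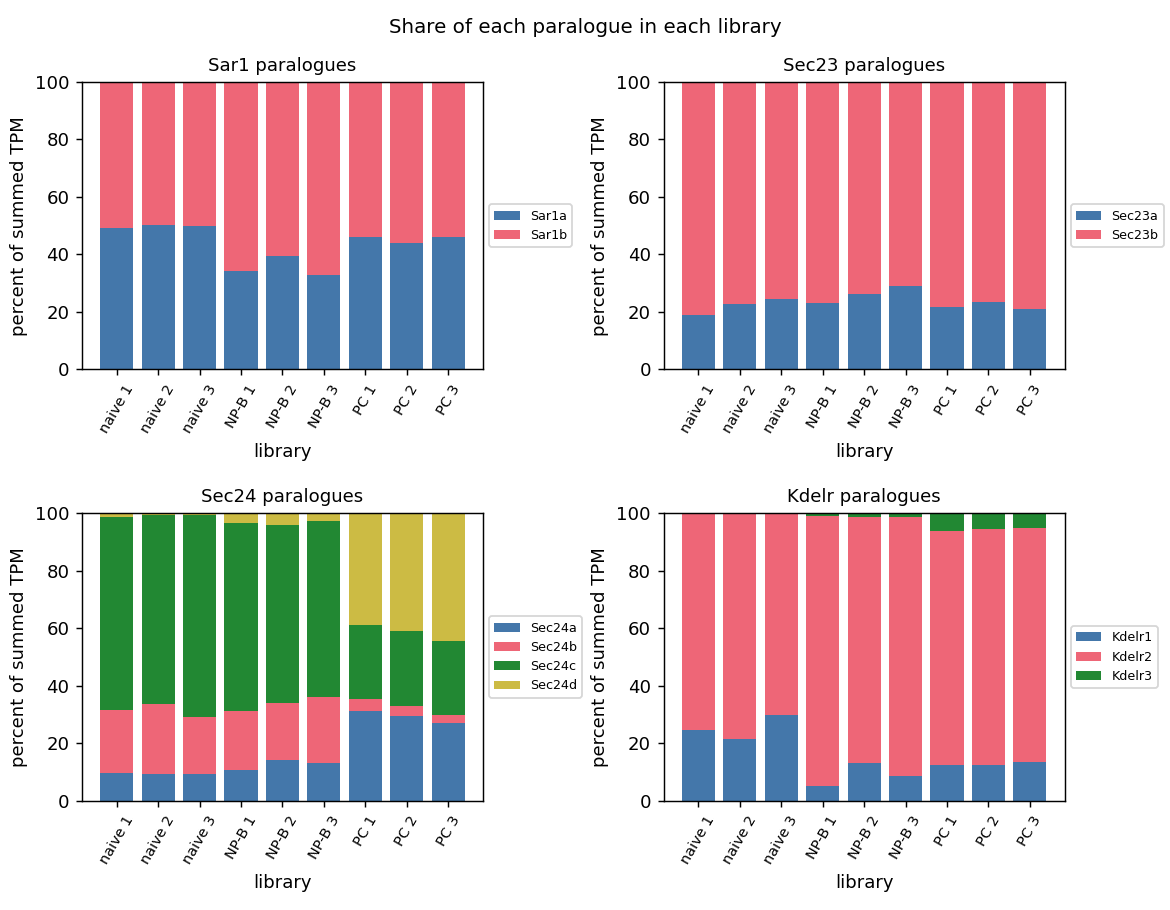
Share of each paralogue in the summed TPM of its family (Sar1, Sec23, Sec24, Kdelr), as stacked bars with 1 bar per library for the 3 naive B cell, 3 NP-binding B cell (NP-B) and 3 plasma cell (PC) libraries. Sec24d takes 39.0 to 44.6% of Sec24 in plasma cells and at most 4.25% in the other libraries, while the Sec23 shares overlap between groups.

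Sec23, the partner of Sec24 and the GTPase-activating subunit, showed no such switch. Sec23a was at 14.1, 14.4 and 18.3 TPM in naive, 12.9, 15.2 and 15.8 in NP-binding B cells and 40.9, 48.1 and 34.7 in PCs. Sec23b was at 59.9, 49.2 and 56.7, then 42.6, 42.4 and 38.6, then 148, 158 and 130.4. Against naive B cells both were called higher in PCs, by 1.36 ± 0.17 and 1.38 ± 0.12 on the log2 scale, and Sec23a kept 22.1%, 26.2% and 22% of the pool. Sar1a and Sar1b, the GTPases that start the coat, were about equal in naive B cells. Sar1a was at 63.2, 69.6 and 72.7 in naive, 70.1, 69.0 and 66.0 in NP-binding B cells and 197, 187 and 207 in PCs. Sar1b was at 65.0, 69.2 and 72.5, then 134, 105 and 135, then 231, 238 and 244. Sar1b thus stood between the other groups in NP-binding B cells without overlap (log2 change 0.84 against naive, adjusted p = 0.000305, fold change under 2) and was not called in PCs against NP-binding B cells (0.94), and its share was 50.2% in naive, 64.4% in NP-binding B cells and 54.7% in PCs. The outer coat genes Sec13 and Sec31a were called higher in PCs in both comparisons, Sec13 at 142, 199.6 and 462 TPM on average in naive B cells, NP-binding B cells and PCs, and Sec31a at 72.2, 57.1 and 169.

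Of the 4 ER exit site genes, Tfg and Mia3 were called higher in PCs against naive B cells (log2 changes 1.54 and 1.17). Mia3 encodes TANGO1, a receptor for bulky cargo. Sec16a, the scaffold of the exit site, averaged 42.8 TPM in naive, 21.7 in NP-binding B cells and 73.9 in PCs. In the main fit it was called only against NP-binding B cells (1.74 ± 0.16), and its change against naive was 0.77 with a fold change under 2. Preb, the exchange factor of Sar1, had the same order of levels at 7.01, 5.56 and 13.5, with a log2 change of 1.22 against NP-binding B cells and 0.89 against naive. For both genes the test of the difference between these comparisons is that of NP-binding against naive B cells, which gave -0.97 (adjusted p = 0.00115) for Sec16a and -0.33 (adjusted p = 0.171) for Preb. Both were called higher in PCs against naive B cells with median-of-ratios scaling (Sec16a 1.26, Preb 1.38) and with quantile normalization (1.03 and 1.44).

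The 7 COPI subunits among the members differed from each other in their change. All 7 had PC libraries above all naive libraries, 4 were called higher (Copb1, Copb2, Cope and Arcn1) and Copa, Copg1 and Copz1 had fold changes under 2. Cope, the epsilon subunit, stood out at 281, 263 and 261 TPM in naive, 357, 291 and 314 in NP-binding B cells and 1861, 1944 and 1789 in PCs, and it was the most abundant of the 42 transcripts there. Its log2 change was 2.79 ± 0.09 against naive (adjusted p = 1.17e-09), and those of the other 6 subunits ran from 0.80 to 1.53. Cope took 32.1% ± 1.36 of summed COPI TPM in naive B cells, 34.8% ± 0.856 in NP-binding B cells and 60.4% ± 1.71 in PCs, a share that was computed after its level was seen. Arf4, one of the GTPases that act with COPI, was at 186, 173 and 195 in naive, 200.4, 188 and 208 in NP-binding B cells and 789.8, 807 and 797 in PCs (log2 change 2.11 ± 0.08, adjusted p = 4.37e-09). Arf1 was not called (0.66), and its share of the pair was 60.8% ± 0.493 in naive B cells, 61.5% ± 1.24 in NP-binding B cells and 36.3% ± 0.588 in PCs. In the full table Copa, Copg1, Copz1 and Arf1 had negative changes (-0.35, -0.41, -0.31 and -0.56). With median-of-ratios scaling the same genes were called higher (1.35, 1.30, 1.4 and 1.15).

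Of the KDEL receptors, Kdelr1 and Kdelr2 were called higher in PCs in both comparisons, also in the full table, and Kdelr3 is given by its values. Kdelr2, the most abundant, was at 26.3, 32.7 and 31.6 TPM in naive, 71.3, 38.5 and 51.2 in NP-binding B cells and 354, 334 and 376 in PCs (log2 change against naive 3.53 ± 0.19, adjusted p = 5.33e-08). Its NP-binding libraries already lay above all naive ones, with a fold change under 2 (0.77, adjusted p = 0.0128). Kdelr3 was at 0.0631, 0.121 and 0.178 in naive B cells, at 0.619, 0.552 and 0.720 in NP-binding B cells and at 27.5, 22.1 and 23.4 in PCs. The naive values rested on 2.00, 4.01 and 5.06 estimated reads, and since Kdelr3 passed the filter only through the group where it is high, its calls are no evidence of a difference. Kdelr1 followed another course, at 8.63, 8.99 and 13.5 in naive, 3.90, 5.90 and 4.81 in NP-binding B cells and 54.8, 49.9 and 62.7 in PCs. It was the one member called lower in NP-binding than in naive B cells (-1.02 ± 0.25, adjusted p = 0.00832), and it was called higher in PCs than in either (2.39 ± 0.19 and 3.40 ± 0.22). The call of Kdelr1 in NP-binding B cells was lost with median-of-ratios scaling (-0.91), quantile normalization (-0.88) and log2(TPM + 1) (-0.94), and without naive library 3 (-0.82) or NP-binding library 1 (-0.88). Its share of the family was 25.3% ± 4.18 in naive, 8.92% ± 4.02 in NP-binding B cells and 12.8% ± 0.67 in PCs.

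Lman1 (ERGIC-53), a lectin that carries glycoproteins out of the ER, was at 16.7, 17.7 and 22.3 TPM in naive, 27.8, 29.0 and 29.5 in NP-binding B cells and 624, 614 and 637 in PCs. The PC libraries agreed closely and lay more than an order of magnitude above the rest, with log2 changes of 5.02 ± 0.12 against naive (adjusted p = 1.82e-10) and 4.42 ± 0.11 against NP-binding B cells. By level Lman1 ranked 35 of the 42 in naive B cells and 4 in PCs. Mcfd2 encodes the small subunit that pairs with Lman1. It averaged 28.1, 19.6 and 96.8 TPM (log2 change 1.76 against naive), so the ratio of Lman1 to Mcfd2, taken after both levels were seen, was 0.674 ± 0.126 in naive, 1.48 ± 0.205 in NP-binding B cells and 6.47 ± 0.405 in PCs. Surf4, a receptor for many soluble cargoes, was at 84.4, 85.6 and 92.1 in naive, 109, 95.8 and 91.6 in NP-binding B cells and 754, 784 and 701 in PCs (3.08 ± 0.10, adjusted p = 1.05e-09). Lman2, another lectin, averaged 69.6, 88.8 and 291 (log2 change 2.05 against naive).

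The p24 proteins, which pair with each other in COPII and COPI vesicles, split into 3 patterns. Tmed10 was flat between the B cell groups, at 59.8, 60.8 and 65.5 TPM in naive and 61.9, 55.7 and 59.8 in NP-binding B cells, and reached 579, 609 and 542 in PCs (3.20 ± 0.09, adjusted p = 7.37e-10). Tmed2, its partner in the p24 complex, was higher in NP-binding B cells already, at 302, 229 and 297 against 123, 105 and 175 in naive B cells, and was at 595, 548 and 443 in PCs. It was called in NP-binding against naive B cells (1.05 ± 0.19, adjusted p = 0.00156) and in PCs against naive B cells (1.99 ± 0.19), and its change from NP-binding B cells to PCs was 0.94 ± 0.18, a fold change under 2. Tmed4 overlapped between PCs and both B cell groups, averaging 43.3, 37.0 and 42.8, with a change against naive of -0.02 (95% interval -0.40 to 0.35). Tmed3 and Tmed9 were called higher in PCs in both comparisons, with log2 changes against naive of 1.73 and 1.71. As shares of the 5 genes, Tmed10 was at 15.0%, 10% and 33.4%, and Tmed4 at 10.5%, 6.12% and 2.48%.

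The 4 SNAREs among the members were called higher in PCs in both comparisons, and so were the 3 tether and Golgi genes. Of 14 further SNAREs and SNARE partners, the comparison of PCs with naive B cells called 2 higher (Stx18 and Scfd1) and 5 lower (Use1, Bnip1, Stx17, Sec22c and Nsf), with and without PC library 3, beside 11.4% and 26.3% of all genes. Bet1 changed most among the SNAREs, at 22.5, 19.1 and 22.8 TPM in naive, 24.4, 19.1 and 26.7 in NP-binding B cells and 162, 173 and 161 in PCs (2.91 ± 0.13, adjusted p = 1.80e-08). Its partners Sec22b, Stx5a and Gosr2 had log2 changes of 1.94, 1.51 and 1.33. Uso1 (p115), which tethers vesicles at the Golgi, was at 6.95, 7.80 and 10.7 in naive, 4.82, 6.37 and 3.93 in NP-binding B cells and 48.3, 49.7 and 47.4 in PCs. It was lower in NP-binding than in naive B cells without overlap (-0.71, adjusted p = 0.0298, fold change under 2) and called higher in PCs (2.46 ± 0.18 against naive, 3.17 ± 0.20 against NP-binding B cells). Golgb1 (giantin), a Golgi tether, and Yif1a, a membrane protein that cycles between ER and Golgi, had log2 changes of 1.65 and 1.53 against naive B cells.

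The NP-binding B cells, still negative for the Blimp1 reporter, showed little of this. In NP-binding against naive B cells, 2 of the 42 genes were called higher (Sec24d, 1.23 ± 0.36, adjusted p = 0.018, and Tmed2) and 1 lower (Kdelr1), against 8.13% and 10.4% of all genes, and the median log2 change was 0.09 against -0.16 over all genes. All NP-binding libraries lay above all naive ones in 16 genes (23.6% of all genes) and below them in 9 (32.4%). With the smaller cut that the study used for its plots, a log2 change of at least 0.5, 6 genes were higher (Sar1b, Sec24d, Tfg, Kdelr2, Lman1 and Tmed2) and 6 lower (Sec24b, Sec24c, Sec16a, Kdelr1, Mcfd2 and Uso1), against 15.7% and 20.9% of all genes. Of the 6 lower ones, Kdelr1, Mcfd2 and Uso1 were called higher in PCs against naive B cells. The even split at this smaller cut depended on the scaling. It became 10 higher and 2 lower with median-of-ratios scaling, and 9 higher and 4 lower with the authors' log2 values. With quantile normalization Tmed2 was not called (0.86). Kdelr3, not called in the main fit, was called higher with quantile normalization (1.15), log2(TPM + 0.1) (1.76) and the authors' log2 values (2.35). Since it passed the filter only through its PC libraries, these calls of Kdelr3 are a description. The calls rest on single libraries: without naive library 2 neither Sec24d (0.98) nor Tmed2 (0.89) was called, without naive library 3 or NP-binding library 2 Sec24d was not called (1.23 and 1.10), and without NP-binding library 1 or 3 Tmed2 was not called (0.98 and 0.99). NP-binding library 2, in which neutrophil markers were highest, had the highest Sec24d and Kdelr1 and the lowest Tmed2 and Kdelr2 of its group, and the part of these markers was not tested.

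**Figure D4:**
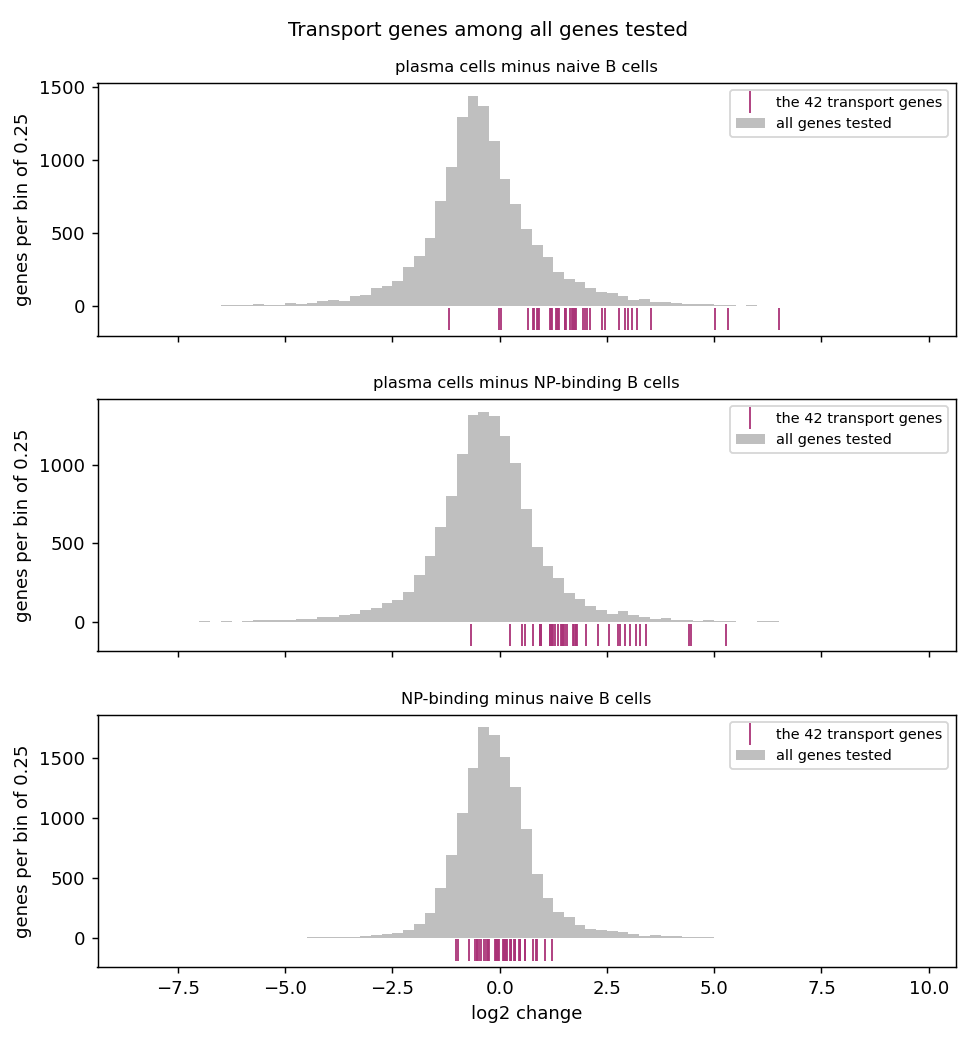
Histograms of the log2 change of all 12892 genes tested in the 3 comparisons (bins of 0.25), with the 42 transport genes as ticks below. Most ticks lie right of the bulk in both plasma cell panels (median 1.59 and 1.48) and within the bulk of the distribution in the third (median 0.09).

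From a list of 80 further ER to Golgi genes, 78 were tested in PCs against naive B cells, of which 18 were called higher and 12 lower (median log2 change 0.26), beside 11.4% higher and 26.3% lower and a median of -0.47 over all genes tested. These counts turned with the scaling, to 7 higher and 36 lower in the full table (4.47% and 64.5% of all genes) and to 33 higher and 4 lower with median-of-ratios scaling (18.2% and 14.1% of all genes). Without PC library 3 they were 20 and 12. The 4 with the largest rise were Tmed6, a p24 protein (0.858 to 413 TPM, log2 change 8.23), Ergic1, which cycles between ER and Golgi (24.9 to 894, 5.13), Copz2, the second zeta subunit of COPI (0.558 to 26.4 TPM), and Creb3l2, a transcription factor known to act on COPII genes (2.61 to 56.0, 4.20). Like Kdelr3, Copz2 passed the filter only through its PC libraries, so its call and its place in this order are a description. Tmed6 was also called in NP-binding against naive B cells (30.8 TPM, 4.47). The 4 with the largest fall were Tmed8 (-2.61), Copg2, the second gamma subunit of COPI (41.9 to 11.3 TPM, -1.91), Sec22c (-1.85) and Arf3 (-1.61). Arfgap1, which drives GTP hydrolysis on Arf1, was not called against naive B cells (0.65) and was called higher against NP-binding B cells (1.08). Among 20 genes of post-Golgi coats (clathrin, its adaptors and retromer), the same comparison called 1 higher (Cltb, a clathrin light chain, 1.82) and 6 lower. Their median was -0.57, and the lower share and this median are near those over all genes tested. In the full table, none was called higher and 13 were called lower, and with median-of-ratios scaling 4 higher and 4 lower, beside the shares of all genes just given. Without PC library 3 the 1 and 6 were the same. The largest falls were in Gga2 (319 to 31.5 TPM, -3.33), Ap1m1 (207 to 43.7, -2.25), Ap1b1 (-1.88) and Ap1s2 (-1.57), a Golgi adaptor and 3 subunits of the adaptor complex AP-1.

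Promoter windows were read because most members were called higher in PCs in the table without Ig genes and the unfolded protein response, which Xbp1 serves in plasma cells, is known to act through short DNA elements. RefSeq windows on GRCm38.p6, from 250 bases before to 50 after each annotated start, were found for 37 of the 42 genes (42 windows). The UPR element TGACGTGG, on either strand, was present in 7 of the 37 genes (18.9%: Arf1, Copb1, Copb2, Kdelr3, Sec23a, Sec24d and Stx5a), and in 0.714% of all 27025 genes with a window (0.676% of 32851 windows). Its shorter cores, which overlap it, were more common: CCACG was in 27 of 37 (73% against 35.5% of all genes) and ACGTG in 26 of 37 (70.3% against 21.8%). The ER stress element (CCAAT, any 9 bases, then CCACG) was in 0 of 37 and in 0.137% of all genes, and its second form (ATTGG, any base, then CCACG) in 0 of 37 and 0.0444%. The shares over all genes include genes that are not expressed here, while all members passed the filter on low values. Members were not set beside expressed genes alone. A match is a description of letters, not of binding, and no match says only that these letters are not in the window.

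The matched stretches are shown so that the place of the element can be read in each gene. Each is written 5′ to 3′ on the strand of the gene, with the match in capitals (CCACGTCA is the same element on the opposite strand), and positions count from the annotated start.
Sec24d (chr3:123267459-123267488, plus strand, match at -26 to -19): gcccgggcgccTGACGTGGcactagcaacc
Kdelr3 (chr15:79516367-79516396, plus strand, match at -30 to -23): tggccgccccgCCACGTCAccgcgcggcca
Copb1 (chr7:114254690-114254719, minus strand, match at -28 to -21): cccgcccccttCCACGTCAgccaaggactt
Copb2 (chr9:98563713-98563742, plus strand, match at -7 to 1): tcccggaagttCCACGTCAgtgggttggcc
Sec23a (chr12:59011993-59012022, minus strand, match at 7 to 14): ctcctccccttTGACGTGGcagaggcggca
Arf1 (chr11:59228228-59228257, minus strand, match at -84 to -77 of one start and 22 to 29 of another): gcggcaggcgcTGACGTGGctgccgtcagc
Stx5a (chr19:8741422-8741451, plus strand, match at 10 to 17): tggcgcagcagCCACGTCAccgagttagga
Stx5a held a second match at 40 to 47. The GENCODE genes Sec24d, Copb1 and Copb2 start upstream of the match.

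The whole stretch before the start of Kdelr3 (chr15:79516158-79516407, plus strand) is given as the context of 1 such match:
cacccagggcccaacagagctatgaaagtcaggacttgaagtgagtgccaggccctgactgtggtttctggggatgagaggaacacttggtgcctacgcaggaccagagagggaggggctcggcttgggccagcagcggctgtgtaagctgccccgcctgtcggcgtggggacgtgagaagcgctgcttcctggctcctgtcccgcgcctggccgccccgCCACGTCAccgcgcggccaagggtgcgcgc
In PCs against naive B cells the 7 genes with a match had a median log2 change of 1.36 (range 0.66 to 6.51, Kdelr3 among them) and the 30 without one a median of 1.62 (range -1.19 to 3.20). No window was found for Lman1, Kdelr2, Tmed2, Arcn1 and Golgb1.

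**Figure D5:**
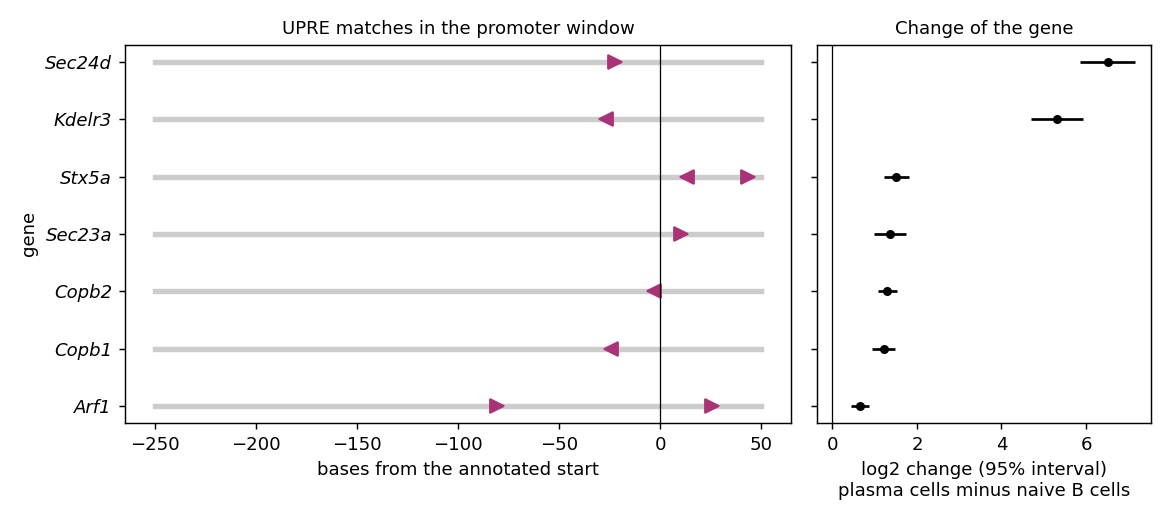
Left, position of each UPR element match (triangles, pointing along the strand of the match) in the promoter windows of 7 genes, in bases from the annotated start. The 2 symbols of Arf1 are 1 site seen from 2 starts, and those of Stx5a are 2 sites. Right, log2 change of the same genes in plasma cells against naive B cells with 95% intervals, which runs from 0.66 for Arf1 to 6.51 for Sec24d.

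Some members share exon bases with a gene on the opposite strand, and the counting is not stated to use strand, so reads there cannot be told apart. The pairs with measured protein-coding partners were Copa and Ncstn (195 bases, Ncstn at 90.4, 77.2 and 108 TPM), Arf4 and Pde12 (527 bases, 8.69, 10.8 and 8.40 TPM), Surf4 and Surf2 (144 bases, 31.6, 33.5 and 11 TPM), Kdelr3 and Ddx17 (4 bases) and Yif1a and Cnih2 (14 bases).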

How the data were processed

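The authors pseudoaligned single-end reads with kallisto and gave 1 value per gene symbol. The deposited values are TPM and, made by the authors with voom from the same estimates, log2 values scaled to library size. Tables were given with and without Ig genes. The submitters' processing notes name the build mm10. The transcript annotation is not given in the sources used here. Reads came from 2 sequencers, and which library was read on which is not stated, so that a batch could not be examined.

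For each comparison, voom (limma 3.58.1, R 4.3.3) was run on TPM without Ig genes, with an offset of 0.5 and the column sum as library size, and 1 model was fitted over all 9 libraries with 3 group means and no block. Estimated reads were recovered from the log2 values and cover counting error only. Shares were tested by exact permutation, two-sided. The fit was tested on simulated data, and no conclusion here rests on that test. The members, gene lists, motifs and naming rule were chosen with earlier results of these data known. TPM in every library was given for the 12 called members with the largest change in PCs against naive B cells, for members called in NP-binding B cells or lower in PCs, and for the Kdelr, Sec24, Sec23 and Sar1 genes. Alternatives were another table, scaling, filter, offset and block, and each library left out.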

Additional observations from a re-analysis of the deposited data

How the results depend on the processing

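The members called higher in PCs were 33 against naive and 32 against NP-binding B cells, and moved by over 1.5 times in the full table with Ig genes, to 11 and 12. There 3 were lower against naive B cells and 1 against NP-binding B cells. Sec24c, near 0 in the main fit (0.03), was one of those lower against naive B cells (-1.18). Sec31a (-0.006) and Mia3 (-0.041) against naive B cells lost their calls and lay just below 0. So did Arcn1 (-0.029), Golgb1 (-0.036) and Arfgap1 (-0.11) against NP-binding B cells. Below 0 with an adjusted p under 0.05 in limma but a fold change under 2 were Arf1 (-0.56), Sec16a (-0.43), Copg1 (-0.41), Copa (-0.35) and Copz1 (-0.31) against naive B cells. Against NP-binding B cells these were Tmed4 (-0.93), Arf1 (-0.69), Sec24c (-0.60), Copz1 (-0.42) and Copa (-0.26). Without PC library 3 the full table gave 10 and 11 higher and 3 and 1 lower. Sec24c was still below 0 against naive B cells (-1.13), and so were Golgb1 (-0.17) and Arfgap1 (-0.058) against NP-binding B cells. Sec31a (0.096) and Mia3 (0.007) against naive B cells and Arcn1 (0.035) against NP-binding B cells were above 0 without that library. With median-of-ratios scaling the members called higher rose to 39 and 38, beside 2349 and 2023 of all 12892 genes. With quantile normalization they were 35 and 36, beside 2063 and 1795 of all genes. Median-of-ratios scaling added Sec16a, Preb, Copa, Copg1, Copz1 and Arf1 against naive B cells. Against NP-binding B cells it added Sar1b, Tfg, Copa, Copb1, Copz1 and Tmed2. The 1 lower against naive B cells became 0 with median-of-ratios scaling and with quantile normalization, which moved the median of all genes by 0.49 and 0.40. The 1 lower in NP-binding against naive B cells became 0 with these and with log2(TPM + 1). The cause was not tested. With each library left out in turn, counts ran from 32 to 33 higher and 0 to 1 lower in PCs against naive B cells, 31 to 35 higher and 0 lower against NP-binding B cells, and 0 to 2 higher and 0 to 2 lower in NP-binding against naive B cells. The group left with 2 libraries was then assumed to vary like the others. Fits without a PC library left Kdelr3 untested, so their counts are of 41 members, and the low ends in PCs came from these fits. The 2 lower in NP-binding against naive B cells were Kdelr1 and Sec16a. Sec16a was called without naive library 2 (-1.05) or NP-binding library 2 (-1.04). Same-numbered libraries did not deviate together (r from -0.08 to 0.07 over 9 pairs, 0 over 0.1), and a replicate block gave the same counts as the fit without it (33 and 1, 32 and 0, 2 and 1). Depth limits Kdelr3 and Sec24d in naive B cells.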
